A study of Mus musculus with 12 samples.

Results

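The comparison described here sets the hippocampus against the prefrontal cortex within 1 genotype, the APPsα-DM mouse, and covers 6 of the 12 arrays of the series. Its members were the 3 hippocampus arrays and the 3 cortex arrays that carry this genotype in their labels. Each array measured the RNA of 1 tissue sample. APPsα-DM mice have the genotype APPα/αAPLP2-/-: per the labels they lack APLP2, a family member of the amyloid precursor protein (APP), and both App alleles are edited. This allele is generally described as ending the protein at the alpha-secretase cleavage site, so that the cells make the soluble ectodomain APPsα and no membrane-bound APP. The other 6 arrays came from the same tissues of APLP2-KO mice (APLP2-/-), which share the lack of APLP2 and keep intact App alleles. These arrays serve here for comparison and enter the estimate of the spread. All mice were adult females, 38 to 40 weeks old, on a C57BL/6 background after 6 generations of back-crossing, and the design gives 3 mice per genotype. The labels do not tell which hippocampus and which cortex came from the same mouse, nor whether samples were pooled, so the p values measure the spread between these samples. No wild-type mouse was analysed here, and the differences below are those of brains without APLP2 and with edited App.

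The hippocampus is a folded sheet of older cortex, in which granule cells of the dentate gyrus send mossy fibres to CA3 pyramidal cells, and these in turn project to CA1. The neocortex has layers of projection neurons, each layer with its own transcription factors and targets, and in both tissues GABAergic interneurons, glia and vessels surround the principal cells. The 2 regions therefore differ mainly in the kinds of principal neurons they hold, and these kinds are set apart by transcription factors, receptors, ion channels, peptides and adhesion molecules. The hippocampus also borders the choroid plexus and the ventricle wall, while a block of prefrontal tissue can border the striatum. In arrays of whole tissue, fewer cells of a type and less RNA per cell cannot be told apart.

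Values are log2 signals from the series table, so that 1 unit is a doubling of signal, and a difference is hippocampus minus cortex. Over all probe sets, the 6 pairs of APPsα-DM arrays from 1 tissue had r = 0.9947 to 0.9972, and for the 9 pairs across tissues r was 0.9887 to 0.9913. The lower quartile of the arrays' signals lay near 4.2, and the table holds no detection calls, so that folds against signals this dim are uncertain. Before any result, 3 arrays stood apart in genes of tissue that borders the sample. The mean level of 22 choroid plexus genes was 5.31 on cortex 1, 7.15 on cortex 2 and 5.38 on cortex 3, against 8.03, 5.83 and 7.58 on hippocampus 1, 2 and 3. Cortex 2 was thus high and hippocampus 2 low for their groups. Hippocampus 1 was high in 22 smooth muscle and leptomeningeal genes, at a mean of 8.57 against 7.24 on each of the other 2 hippocampus arrays and 7.26 to 7.39 in cortex. Counts without the arrays numbered 2 are given beside the first counts, and for lists where they differ by more than 1.5 times.

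Hippocampus and cortex of APPsα-DM mice differed in 4789 of 45037 probe sets (10.6%) at an adjusted p below 0.05 in limma's moderated test, which is what "called", "higher" and "lower" mean from here on. Of these, 2348 (5.21%) were higher and 2441 (5.42%) lower in hippocampus. With each gene represented by its brightest probe set, 1199 of 18193 genes (6.59%) were higher and 1335 (7.34%) lower. In either direction 13.9% of genes were called, and these shares are the background for the list counts below. At least a 2-fold difference was called in 166 genes (0.912%) that were higher and 187 (1.03%) that were lower. The 3 hippocampus signals lay above all 3 cortex signals in 15.3% of genes and below all of them in 17.4%. The median difference over all genes was -0.02, and the median SE of a difference was 0.09. Without cortex 2 and hippocampus 2, 898 genes were higher and 1084 lower.

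The largest rises were led by genes of dentate granule cells. Dsp on chromosome 13 encodes desmoplakin, the protein that ties desmosomes to intermediate filaments, and its signals were 3.56, 4.41 and 4.25 in cortex and 8.71, 9.58 and 8.997 in hippocampus. The difference was 5.02 ± 0.36 (SE), a 32.4-fold excess (adjusted p = 1.9e-06). Pkp2, which encodes the desmosomal partner plakophilin 2, moved with it, from 6.09, 6.37 and 6.67 in cortex to 9.30, 9.35 and 9.44 in hippocampus (7.95-fold). C1ql2, a secreted C1q-like protein of mossy fibre synapses, gave 5.76, 5.61 and 5.30 in cortex and 10.002, 10.21 and 10.29 in hippocampus, a 24.4-fold difference. In both groups the 3 arrays of a tissue lay far closer to each other than to the other tissue. Npy2r, the presynaptic Y2 receptor for neuropeptide Y, had signals of 5.24, 5.199 and 5.62 in cortex against 9.32, 9.48 and 9.68 in hippocampus, a difference of 4.14 ± 0.11 (SE) (adjusted p = 2.9e-09). Lct, lactase, was 17.3-fold higher, and its 9.15, 9.41 and 8.86 in hippocampus stood against 5.27, 4.60 and 5.21 in cortex. The LIM homeobox factor Lhx9 was near the floor of the array in cortex, at 3.01, 3.12 and 3.34, and at 6.78, 6.76 and 6.996 in hippocampus. All 15 genes kept their call without any single array and without both arrays numbered 2.

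Signals in the other 9 of the 15 spanned a wider range of brightness. Cabp7, a calcium-binding protein of the calneuron family, was the brightest, at 8.47, 8.38 and 8.45 in cortex and 11.36, 11.40 and 11.32 in hippocampus (7.61-fold, adjusted p = 6.3e-09). Shisa6, which binds AMPA receptors and slows their desensitization, rose from 5.92, 6.04 and 6.201 to 9.39, 9.63 and 9.41, 10.7-fold. Htr4, the serotonin 5-HT4 receptor that raises cyclic AMP, lay at 4.91, 4.27 and 4.75 in cortex and 7.76, 7.68 and 7.54 in hippocampus, 8.10-fold apart. Here only 1 of the 2 Htr4 probe sets was called. Spink8, a protease inhibitor, and Fibcd1, a membrane receptor for acetylated compounds, are both marks of CA1. Spink8 was 12.1-fold higher, with hippocampus signals of 8.79, 8.86 and 8.73, and Fibcd1 8.93-fold higher, with hippocampus signals of 8.81, 8.83 and 8.88. Tdo2, tryptophan 2,3-dioxygenase, which opens tryptophan breakdown, was 6.64-fold higher and the copine Cpne7, a calcium-dependent lipid-binding protein, 6.28-fold. Chst9, a sulfotransferase, and Olfm4, a secreted glycoprotein, were 6.77-fold and 6.37-fold higher but dim, with cortex signals of 2.64, 2.47 and 3.20 and 3.53, 3.60 and 3.78.

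**Figure D1:**
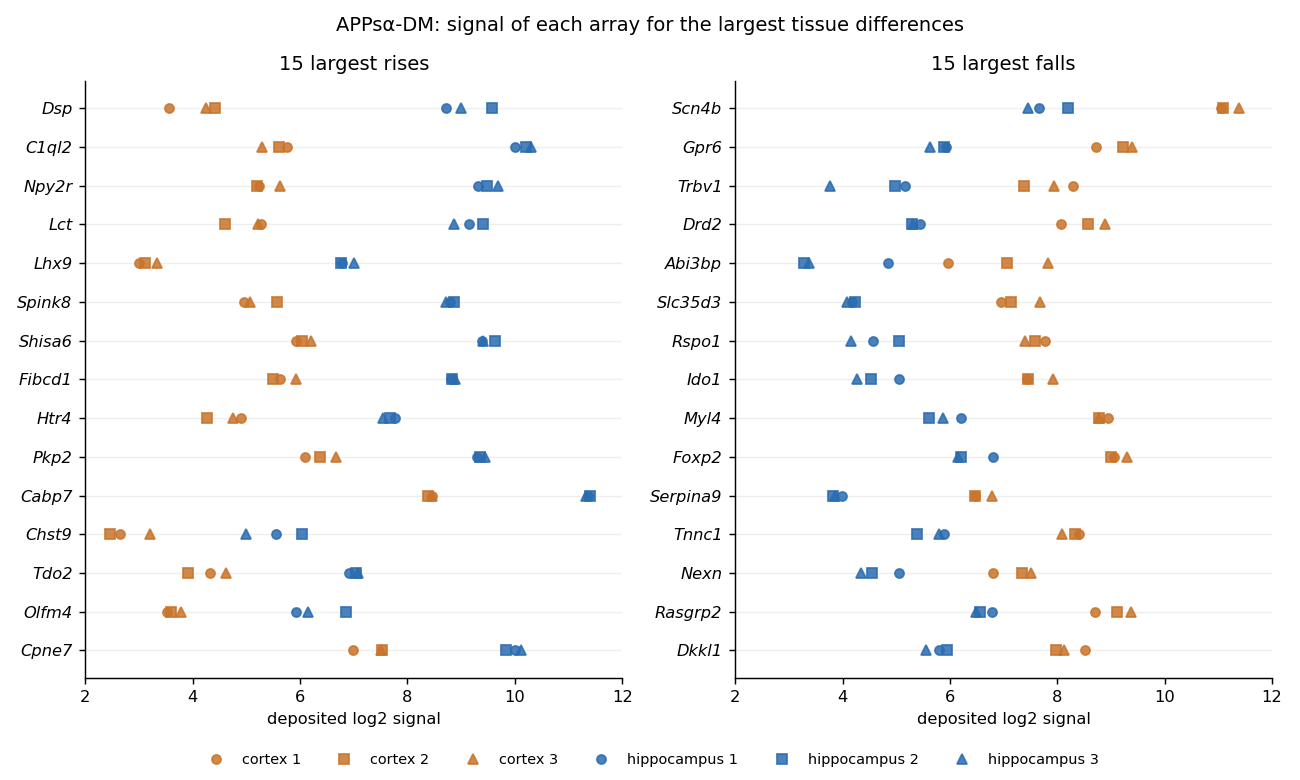
Deposited log2 signal (horizontal axes) of the 15 genes with the largest rises (left) and the 15 with the largest falls (right) from cortex to hippocampus in APPsα-DM mice; orange points are the 3 cortex arrays, blue points the 3 hippocampus arrays, and the marker shape gives the array number. The genes were chosen among those whose groups do not overlap. They run from Dsp (cortex 3.56 to 4.41, hippocampus 8.71 to 9.58) to Abi3bp, where hippocampus 1 (4.85) and cortex 1 (5.97) come closest.

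The largest falls named genes of striatal neurons and of cortical layers. Scn4b on chromosome 9, the beta-4 subunit that shapes resurgent sodium current, had 11.05, 11.09 and 11.39 in cortex and 7.65, 8.21 and 7.46 in hippocampus. It was 10.6-fold lower in hippocampus, by -3.40 ± 0.19 (SE) (adjusted p = 4.1e-07). Gpr6, a receptor active without ligand that raises cyclic AMP in striatopallidal neurons, went from 8.72, 9.22 and 9.40 to 5.92, 5.90 and 5.64, 9.79-fold lower. Among all 3 cortex arrays, cortex 1 was lowest for both genes. Drd2, the dopamine D2 receptor, showed the same order of cortex arrays, with 8.07, 8.57 and 8.89 against 5.45, 5.30 and 5.31 in hippocampus (-3.16 ± 0.21 (SE)). Slc35d3, a transporter-like protein of the nucleotide sugar family, was 8.54-fold lower, and Rasgrp2, an activator of Rap1, 5.44-fold lower. Ido1 encodes indoleamine 2,3-dioxygenase, which catalyses the same first step of tryptophan breakdown as Tdo2 and differed in the opposite direction, with 7.44, 7.46 and 7.92 in cortex and 5.05, 4.53 and 4.27 in hippocampus. Trbv1, a T cell receptor segment, was 9.41-fold lower, but only 1 of its 2 probe sets was called, and that probe set can bind other transcripts.

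Rspo1, a secreted enhancer of Wnt signalling, gave 7.76, 7.59 and 7.40 in cortex and 4.57, 5.05 and 4.15 in hippocampus, 7.96-fold lower. Foxp2, a forkhead factor of deep-layer and striatal neurons, was 6.65-fold lower and called in 4 of its 6 probe sets. Genes better known from muscle were among the falls. Myl4, a myosin light chain of embryonic muscle and atrium, went from 8.95, 8.77 and 8.78 to 6.21, 5.61 and 5.87 (7.65-fold), and Tnnc1, slow and cardiac troponin C, from 8.41, 8.34 and 8.09 to 5.88, 5.39 and 5.79 (6.02-fold). Nexn, the actin-binding protein nexilin, was 5.97-fold lower. Myl4 was called in 1 of its 2 probe sets, and Tnnc1 and Nexn have 1 each. The matrix protein Abi3bp had the widest spread, with 5.97, 7.06 and 7.83 in cortex and 4.85, 3.28 and 3.38 in hippocampus, a difference of -3.11 ± 0.48 (SE) (adjusted p = 0.00089). The serpin Serpina9 and the secreted protein Dkkl1 were 6.42-fold and 5.41-fold lower.

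Of these 30 genes, 18 have a promoter in the RefSeq table used here (assembly GRCm38.p6, 250 bases before to 50 bases after the start site). For genes that moved together, the promoters were searched on both strands for the E-box CAGATG, a site of NeuroD-type factors, and for the cyclic AMP response element TGACGTCA. The E-box was found in 17.2% and the cyclic AMP response element in 1.88% of all 27025 promoters of the table. Among the 9 promoters of rises 0 held either motif, and among the 9 of falls 2 held the E-box and 1 the cyclic AMP response element. Over all genes that were at least 2-fold higher, 24 of 119 promoters (20.2%) held the E-box, and 20 of 142 (14.1%) of those at least 2-fold lower, against 13.5% of 14452 promoters of genes on the array. The cyclic AMP response element was in 0 of the 119 and in 3 of the 142 (2.11%), against 2.68%. The promoters of 3 genes are shown 5′ to 3′ on the gene's strand, that of the largest rise and those of 2 falls with a match, with matches in capitals. That of Dsp is chr13:38151044-38151343 (plus strand), that of Gpr6 chr10:41072241-41072540 (minus strand) with the cyclic AMP response element, and that of Tnnc1 chr14:31208062-31208361 (plus strand) with 2 E-boxes.
Dsp: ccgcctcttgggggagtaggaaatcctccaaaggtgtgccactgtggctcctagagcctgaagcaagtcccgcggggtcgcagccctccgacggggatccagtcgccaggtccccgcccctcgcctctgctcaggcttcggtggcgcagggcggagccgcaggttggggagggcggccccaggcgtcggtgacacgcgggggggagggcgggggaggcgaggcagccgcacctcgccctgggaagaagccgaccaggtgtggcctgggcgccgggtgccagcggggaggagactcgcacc
Gpr6: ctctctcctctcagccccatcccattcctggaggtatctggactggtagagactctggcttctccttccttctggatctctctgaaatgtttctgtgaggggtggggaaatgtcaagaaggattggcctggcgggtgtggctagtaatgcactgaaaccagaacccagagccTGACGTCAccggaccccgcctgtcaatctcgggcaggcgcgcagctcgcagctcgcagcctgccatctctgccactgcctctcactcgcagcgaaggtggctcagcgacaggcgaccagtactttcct
Tnnc1: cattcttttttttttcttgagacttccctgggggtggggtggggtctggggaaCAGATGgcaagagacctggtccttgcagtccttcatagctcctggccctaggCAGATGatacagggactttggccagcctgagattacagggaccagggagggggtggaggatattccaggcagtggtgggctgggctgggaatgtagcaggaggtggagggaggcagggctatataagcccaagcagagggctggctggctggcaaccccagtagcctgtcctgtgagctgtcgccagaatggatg
A match describes these letters only and says nothing of binding.

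Lists of genes of the principal neurons of the hippocampus held more rises than falls. Of 19 measured genes of dentate granule cells, 13 (68.4%) were higher and 0 lower, with a median difference of 0.90, against 6.59% and 7.34% of all genes and their median of -0.02. Il16, an interleukin precursor, was 4.14-fold higher, with 5.92, 5.09 and 5.35 in cortex and 7.47, 7.54 and 7.49 in hippocampus, and the transcription factor Jun 4.01-fold, with 8.46, 8.08 and 8.45 and 10.34, 10.16 and 10.50. The guidance receptor ligand Sema5a, at 8.25, 8.43 and 8.62 in cortex and 9.45, 9.78 and 9.93 in hippocampus, was 2.44-fold higher. The other 6 were not called, and among them Calb1, the calcium buffer calbindin, differed by -0.11 and Pdzd2, a scaffold, by -0.57. Prox1, the homeobox factor that defines granule cell fate and also marks a class of interneurons, rose from 5.65, 5.48 and 5.61 to 6.74, 6.68 and 6.99 (2.33-fold, adjusted p = 3.7e-05).

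CA1 pyramidal cell genes followed, with 10 of 12 (83.3%) higher, 0 lower and a median of 0.93. Beside Spink8 and Fibcd1, Gpr161, a receptor of primary cilia that restrains hedgehog signalling, gave 5.97, 5.85 and 6.16 in cortex and 8.51, 8.54 and 8.57 in hippocampus, 5.85-fold higher. Dcn, the proteoglycan decorin, is a gene of both CA1 neurons and meningeal fibroblasts, and it went from 8.03, 7.87 and 7.86 to 10.55, 9.94 and 10.16, 4.92-fold higher. Hippocampus 1, the array with high meningeal genes, had the highest Dcn signal, and the difference was not carried by that array alone, since hippocampus 2 and 3 also lay above all cortex arrays. Lefty1, a secreted antagonist of Nodal, was 2.72-fold higher. Genes given for CA2, CA3 and mossy cells were called in both directions: 10 of 21 (47.6%) were higher and 3 (14.3%) lower. Homer3, a postsynaptic scaffold, rose from 6.51, 6.27 and 6.35 to 8.18, 8.22 and 8.20 (3.54-fold), and the kainate receptor subunit Grik4 was 1.69-fold higher. The 3 that were lower, Coch (4.31-fold), Pcp4 (2.47-fold) and Ptpn5 (1.65-fold), encode cochlin, a calmodulin-binding peptide and the phosphatase STEP, and the last 2 are also strong in striatum.

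Transcription factors that pattern the hippocampus were called in both directions, 12 of 22 (54.5%) higher and 4 (18.2%) lower. Without hippocampus 3, the lower count was 2. Nr3c2, the mineralocorticoid receptor, which binds corticosterone with high affinity, had signals of 8.04, 8.03 and 8.15 in cortex and 9.80, 10.26 and 9.85 in hippocampus, a 3.71-fold difference (adjusted p = 3.8e-07). Its relative Nr3c1, the glucocorticoid receptor, differed by -0.40 ± 0.09 (SE), with an adjusted p of 0.015, and lost its call without hippocampus 3 (adjusted p = 0.053) or cortex 1 (0.066). Neurod1, a granule cell differentiation factor, was 2.77-fold higher and Neurod6, of pyramidal neurons, 2.43-fold. Zbtb20, a repressor needed for hippocampal identity, went from 8.80, 8.74 and 9.11 to 10.24, 10.34 and 10.30 (2.66-fold). On the other side stood Meis2, a homeobox factor of striatal and cortical neurons, 2.93-fold lower, with 10.63, 10.74 and 11.16 in cortex and 9.28, 9.23 and 9.36 in hippocampus, and Emx1, of dorsal telencephalon, 1.35-fold lower.

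**Figure D2:**
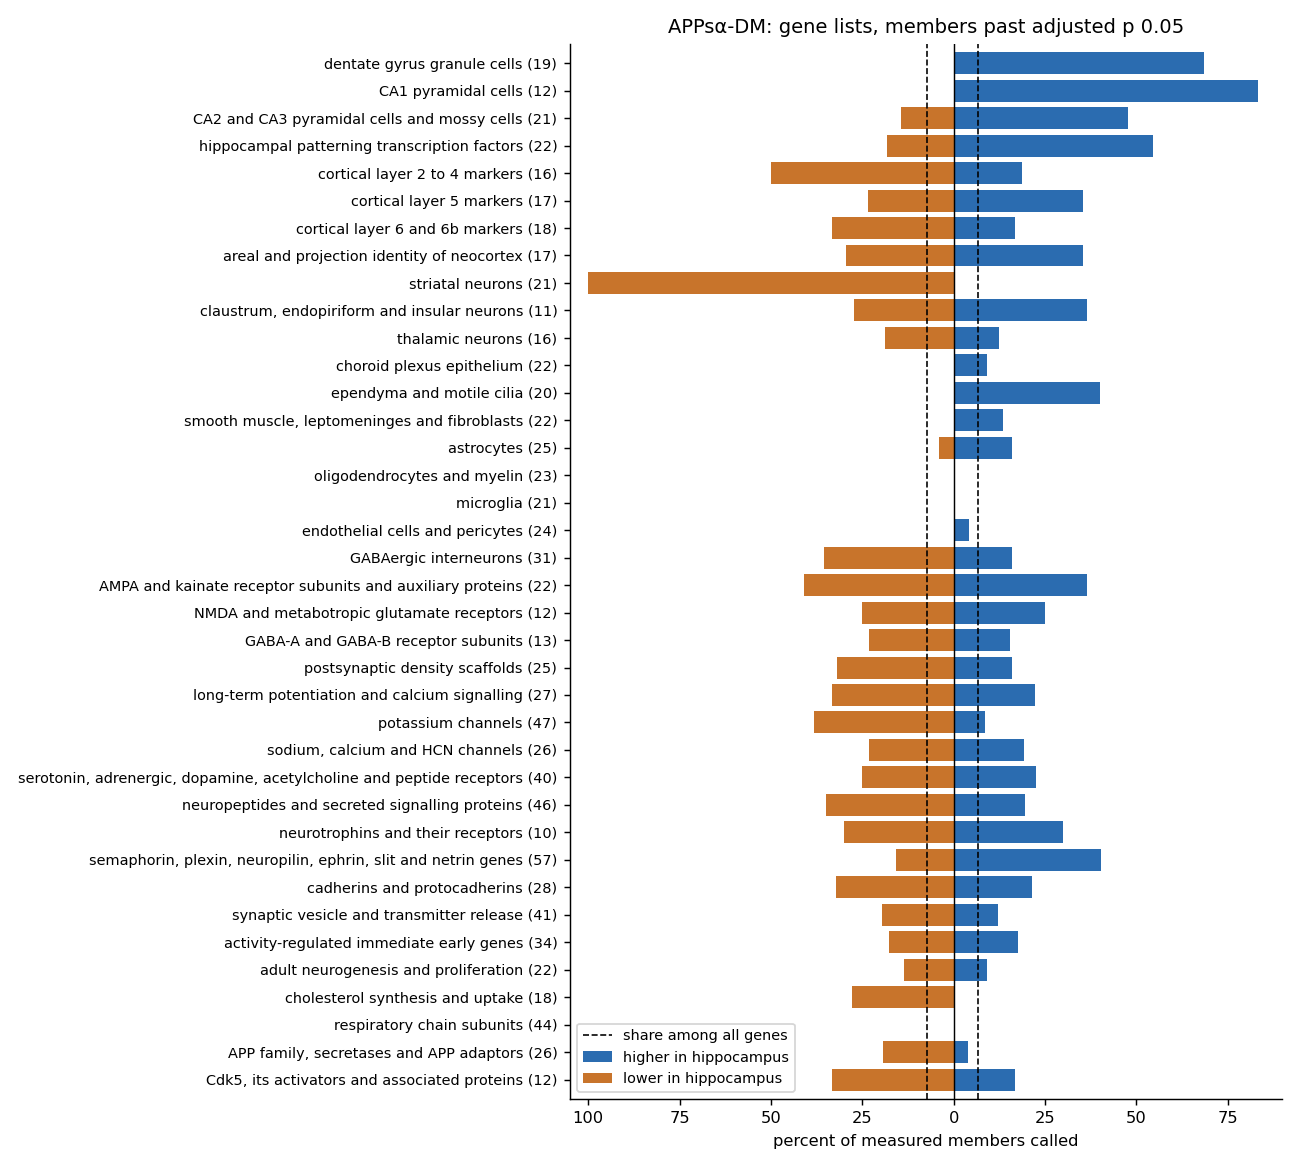
Share of the measured members of each gene list (number in brackets) that passed an adjusted p of 0.05 in APPsα-DM mice, higher in hippocampus to the right (blue) and lower to the left (orange); dashed lines mark the share among all genes, 6.59% higher and 7.34% lower. All 21 striatal genes were lower, and 0 members of the oligodendrocyte, microglia and respiratory chain lists were called.

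Markers of each cortical layer were called in both directions, and the layers were not tested against each other. Of 16 genes of layers 2 to 4, 8 (50%) were lower in hippocampus and 3 (18.8%) higher, with a median of -0.41. Lamp5, a membrane protein of upper layers and of some interneurons, was bright in both tissues, at 12.07, 11.96 and 11.84 in cortex and 10.21, 10.31 and 10.10 in hippocampus, and 3.36-fold lower (adjusted p = 5.8e-07). Cux2 and Rorb, transcription factors of upper layers and of layer 4, were 2.20-fold and 2.12-fold lower. Cux2 had 9.38, 9.08 and 9.27 in cortex and 7.83, 8.07 and 8.43 in hippocampus. Stard8 was 2.72-fold lower and the LIM-only factor Lmo4 2.10-fold. Against them, Wfs1, the endoplasmic reticulum protein wolframin, which is strong in CA1, was 1.72-fold higher.

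Of 17 layer 5 markers, 6 (35.3%) were higher and 4 (23.5%) lower, both above the shares among all genes, and the lower count was 2 without cortex 3 or hippocampus 3. Crym, which binds thyroid hormone, was 2.53-fold higher at 10.93, 10.74 and 11.04 in hippocampus against 9.56, 9.36 and 9.76, and the axon guidance signal Sema3e 1.72-fold higher, while the mTOR inhibitor Deptor was 1.83-fold lower. Bcl11b and Fezf2, which specify subcerebral projection neurons, were not called, at 0.26 and 0.42. In layers 6 and 6b, 6 of 18 markers (33.3%) were lower and 3 (16.7%) higher. Tbr1, the T-box factor of corticothalamic neurons, went from 9.14, 8.94 and 9.22 in cortex to 7.69, 7.95 and 7.92 in hippocampus, 2.37-fold lower (adjusted p = 0.00012). Hs3st4, a heparan sulfate sulfotransferase shared with CA neurons, was 1.55-fold higher. Of 17 genes of areal and projection identity, 6 (35.3%) were higher and 5 (29.4%) lower, and 3 were lower without hippocampus 1, without cortex 2 or without hippocampus 3. The pair at the ends of this list were Nr2f2, the nuclear receptor COUP-TFII, 2.73-fold higher with 7.50, 7.51 and 7.67 in cortex and 9.26, 8.79 and 8.98 in hippocampus, and Mef2c, an activity-dependent factor, 2.61-fold lower with 12.32, 12.13 and 12.08 and 10.74, 10.93 and 10.72.

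Striatal neuron genes made the most uniform list. All 21 measured members were lower in hippocampus, 18 of them at least 2-fold, with a median of -2.19. The list's mean level was 9.33, 9.59 and 9.83 on cortex 1, 2 and 3, and 7.79, 7.74 and 7.64 on hippocampus 1, 2 and 3. The cortex arrays thus differed among themselves by up to 0.50 and the hippocampus arrays by up to 0.15, and cortex 3 was highest and cortex 1 lowest. Ppp1r1b, the dopamine-regulated phosphatase inhibitor DARPP-32, followed that order with 10.37, 10.65 and 11.03 in cortex against 8.60, 7.95 and 8.24 in hippocampus (5.35-fold lower, adjusted p = 3.4e-06). Peptide precursors of both striatal output pathways were lower, Penk (enkephalins) 4.99-fold and Tac1 (substance P) 5.41-fold, and Tac1 went from 10.94, 11.31 and 11.63 to 9.28, 8.83 and 8.47. Drd1, the D1 dopamine receptor, had 9.94, 10.15 and 10.50 in cortex and 7.92, 8.04 and 7.97 in hippocampus, 4.67-fold lower. Rgs9, which ends G protein signalling in striatum, was 4.97-fold lower. Some of these genes are also expressed in neurons of cortex. How far striatal tissue in the cortex samples enters the falls was not tested.

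Claustrum and insula genes went both ways, with 4 of 11 (36.4%) higher and 3 (27.3%) lower. Nnat, the imprinted membrane protein neuronatin, was 3.83-fold higher, at 11.71, 11.12 and 11.21 in hippocampus and 9.15, 9.61 and 9.48 in cortex, and Gnb4, a G protein subunit, 1.94-fold lower. Of 16 thalamic genes, 2 (12.5%) were higher and 3 (18.8%) lower, against 6.59% and 7.34% of all genes. Thalamic markers such as Gbx2 (-0.12) and Slc17a6 (0.60), the glutamate transporter VGLUT2, were not called. Ntng1, a membrane-anchored netrin, was 2.45-fold higher and Ramp3, a receptor-modifying protein, 2.43-fold lower.

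Of 22 measured choroid plexus genes, 21 lay above 0, against 8175 of all 18193 genes, with a median difference of 1.10. Of these genes, 2 (9.09%, against 6.59% of all genes) were called, both higher: Cldn1, a claudin of tight junctions (2.24-fold), and Trpm3, a calcium-permeable channel (2.12-fold). Ttr, transthyretin, the main secreted product of this epithelium, was 8.20, 14.18 and 9.42 on cortex 1, 2 and 3 and 14.34, 11.83 and 14.36 on hippocampus 1, 2 and 3. The groups overlapped because cortex 2 exceeded hippocampus 2, and the difference of 2.91 ± 1.62 (SE) had an adjusted p of 0.32. Kl, klotho, and Otx2, a homeobox factor, gave the same picture, with Otx2 at 3.16, 5.75 and 3.15 in cortex and 7.40, 4.03 and 6.80 in hippocampus. Without hippocampus 2, 8 members were higher, and without both arrays numbered 2, 18 were higher with a median of 2.31. With the list's mean level as a covariate, 3 were higher and 2 lower, with a median of -0.05. That covariate is the mean of these same genes, so it takes out the list's mean difference by construction.

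Ependymal and ciliary genes were higher in 8 of 20 cases (40%) and lower in 0, with a median of 0.59. Foxj1, the master regulator of motile cilia, had 5.66, 5.79 and 5.53 in cortex and 6.38, 6.26 and 6.07 in hippocampus (1.49-fold, adjusted p = 0.0016). Fam183b, a cilium protein, was 1.60-fold higher. The higher count was 4 without cortex 1, without hippocampus 1 or without cortex 3, 5 without hippocampus 3, 12 without cortex 2, and 4 with choroid level as a covariate. The lower count was 1 without hippocampus 2, also when cortex 2 was left out with it. The mean level of the list moved with that of choroid plexus in cortex, with 6.38, 6.64 and 6.27 on cortex 1, 2 and 3, and was 7.03, 6.86 and 6.79 in hippocampus, where the groups did not overlap. Among 22 smooth muscle, leptomeningeal and fibroblast genes, 3 (13.6%) were higher and 0 lower, against 6.59% and 7.34% of all genes. The 3 were Dcn, Lum, the proteoglycan lumican (1.94-fold), and Mylk, myosin light chain kinase (1.51-fold). Without hippocampus 1, 4 members were lower, and without hippocampus 2, 5 were higher.

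**Figure D3:**
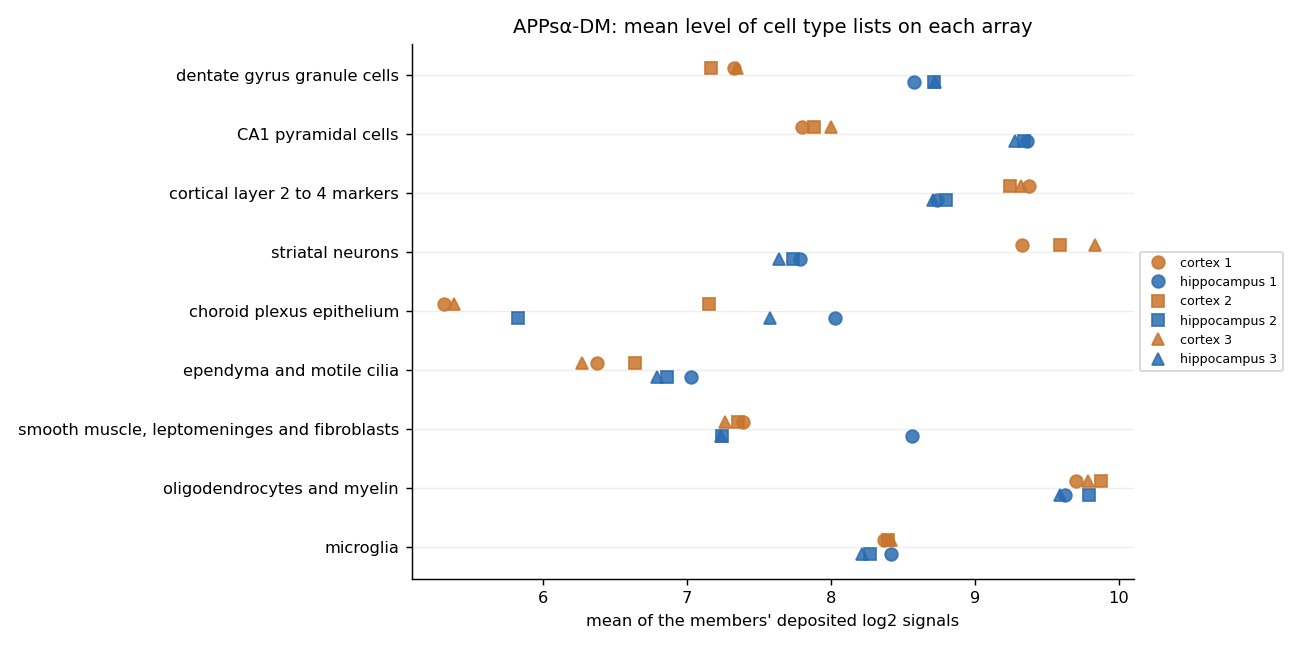
Mean of the deposited log2 signals of all measured members of 9 cell type lists (horizontal axis) on each APPsα-DM array; orange marks cortex, blue hippocampus, and the marker shape gives the array number. Dentate, CA1 and striatal lists separate the tissues on every array, whereas for choroid plexus cortex 2 (7.15) lies above hippocampus 2 (5.83), and for smooth muscle hippocampus 1 (8.57) stands alone.

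With the mean level of the choroid plexus list as a covariate in the fit over all probe sets, 982 genes were higher and 1043 lower, and 3373 of the 4789 probe set calls were repeated in the same direction. Beside the choroid, ependymal and cholesterol lists, that covariate moved 5 counts by more than 1.5 times, all of them of lower genes: hippocampal patterning factors from 4 to 2, areal identity genes from 5 to 3, axon guidance genes from 9 to 5, immediate early genes from 6 to 3, and genes around Cdk5 from 4 to 2. Without both arrays numbered 2, the count of higher genes was 1 in place of 2 for thalamic genes, 2 in place of 4 for astrocyte genes, 4 in place of 8 for AMPA and kainate receptor genes, 3 in place of 6 for potentiation genes and 1 in place of 2 around Cdk5, and 2 APP family genes were lower in place of 5.

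Of 25 astrocyte genes, 4 (16%) were higher and 1 (4%) lower, against 6.59% and 7.34% of all genes, and 2 were higher without hippocampus 2 or without hippocampus 3. Gfap, the intermediate filament of astrocytes, had the largest difference, with 8.43, 8.88 and 8.77 in cortex and 10.01, 10.21 and 10.02 in hippocampus, 2.60-fold higher (adjusted p = 6.3e-06). Aqp4, the water channel of astrocyte endfeet, was 1.45-fold higher and Aldh1l1, a folate enzyme, 1.34-fold lower. In limma's test 0 of 23 oligodendrocyte genes were called, against 13.9% of all genes, with 2 at an unadjusted p below 0.05. Of the 23, 19 lay below 0, against 10018 of all 18193 genes. Their median was -0.12, and Mbp, myelin basic protein, differed by -0.02. Likewise 0 of 21 microglial genes were called and 0 had an unadjusted p below 0.05, although 20 of them lay below 0. The microglial differences ran from -0.23 to 0.0084. Of 24 endothelial and pericyte genes 1 (4.17%, against 13.9% of all genes) was called, Ocln, the tight junction protein occludin, at 1.38-fold higher.

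Of 31 GABAergic interneuron genes, 11 (35.5%) were lower in hippocampus and 5 (16.1%) higher. At the ends of this list were Tac1 (-2.44), also in the striatal list, and Prox1 (1.22), also in the granule cell list. The shared synthesizing enzymes Gad1 and Gad2 were not called, at -0.10 and -0.20, nor was Sst, somatostatin, at 0.07. Marks of other classes were called in both directions. Among the lower, Pvalb, parvalbumin, went from 10.71, 10.72 and 10.31 to 9.79, 9.97 and 9.81 (1.66-fold), Vip, vasoactive intestinal peptide, from 10.57, 10.49 and 10.41 to 9.67, 9.75 and 9.58 (1.77-fold), and Npy, neuropeptide Y, from 11.18, 11.35 and 11.15 to 10.26, 10.66 and 10.21 (1.802-fold). Crh, corticotropin-releasing hormone, was 2.56-fold lower. Nos1, neuronal nitric oxide synthase, was 1.77-fold higher, as were Adarb2 (1.69-fold), a mark of interneurons from the caudal ganglionic eminence, and Htr3a (1.52-fold), an ionotropic serotonin receptor. Npy was thus lower and its Y2 receptor higher in hippocampus.

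Glutamate receptors changed by subunit rather than as a class. Of 22 AMPA and kainate receptor subunits and auxiliary proteins, 8 (36.4%) were higher and 9 (40.9%) lower in hippocampus, against 6.59% and 7.34% of all genes. Without cortex 2 or without hippocampus 3, 4 were higher. Gria1, the GluA1 subunit that joins synapses during potentiation, had 10.28, 10.21 and 10.49 in cortex and 11.60, 11.68 and 11.60 in hippocampus, 2.46-fold higher (adjusted p = 4.8e-06). The auxiliary Cnih2, a cornichon that slows AMPA receptor gating, was 1.77-fold higher. Other auxiliary proteins were lower, Gsg1l 1.995-fold, with 8.93, 8.99 and 9.24 in cortex and 7.72, 8.29 and 8.17 in hippocampus, and the TARPs Cacng4, Cacng8 and Cacng3 1.64-fold, 1.64-fold and 1.49-fold. Among kainate receptors Grik4 was higher and Grik3 1.86-fold lower, and of their Neto partners Neto2 was 1.79-fold lower. NMDA and metabotropic receptors had 3 of 12 (25%) higher and 3 (25%) lower. Grin2a, the GluN2A subunit of mature NMDA receptors, was 1.74-fold higher, with 6.01, 5.52 and 5.70 in cortex and 6.71, 6.41 and 6.50 in hippocampus, and Grin2b was not called, at 0.11. Grm5, which couples to calcium release, was 1.40-fold higher and Grm3, which lowers cyclic AMP, 1.95-fold lower.

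GABA receptor subunits held some of the clearest contrasts between genes of 1 family. Gabra5, the alpha-5 subunit of extrasynaptic receptors, rose from 8.66, 8.57 and 8.88 in cortex to 10.32, 10.63 and 10.55 in hippocampus, 3.48-fold (adjusted p = 1.1e-06). Gabrd, the delta subunit of another extrasynaptic receptor, went the other way, from 9.17, 9.39 and 9.32 to 7.54, 7.74 and 7.71, 3.10-fold lower (adjusted p = 2.8e-07). Gabra3 was 2.26-fold lower, Gabrg3 1.54-fold lower and Gabrb1 1.55-fold higher. In all, 2 of 13 subunits (15.4%) were higher and 3 (23.1%) lower, against 6.59% and 7.34% of all genes.

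**Figure D4:**
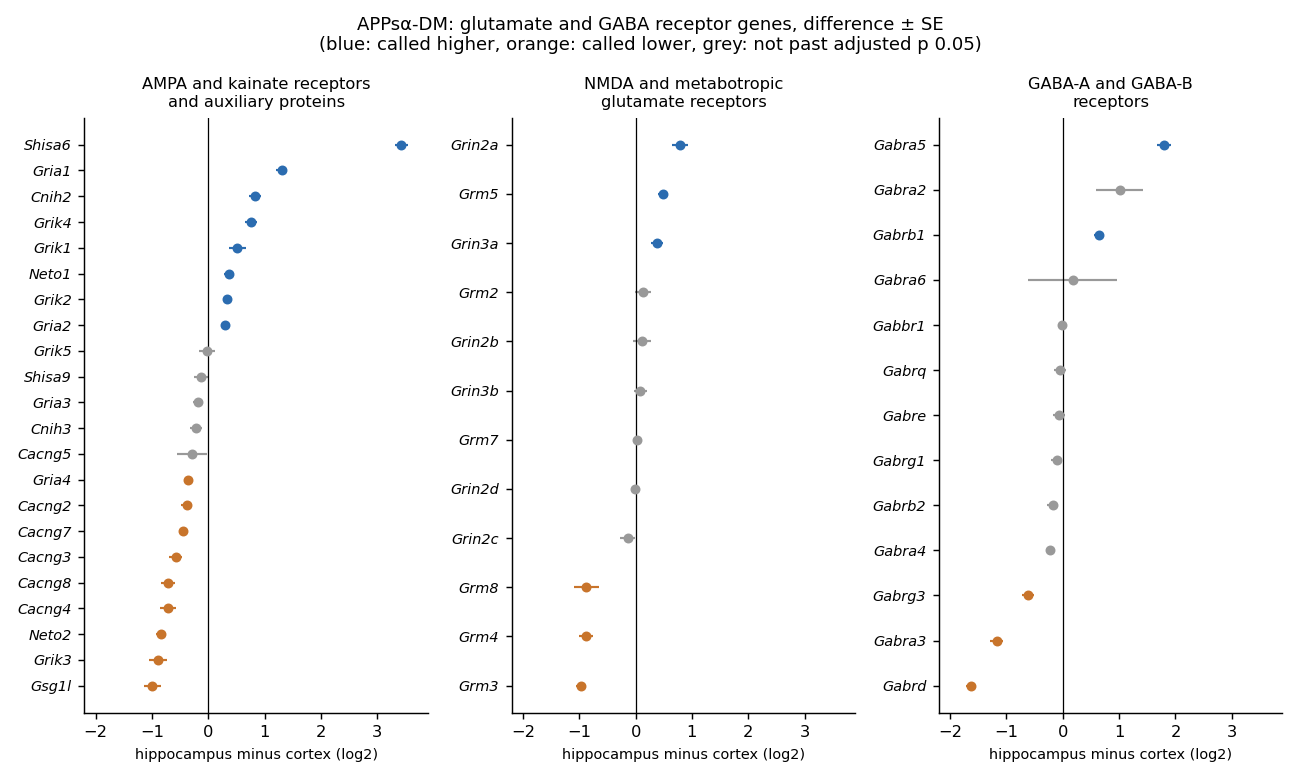
Difference in log2 signal, hippocampus minus cortex in APPsα-DM mice, with its moderated SE (bars), for all measured members of 3 receptor lists; blue was called higher, orange called lower and grey not past an adjusted p of 0.05. Each list has members on both sides of 0, from Shisa6 (3.42) to Gsg1l (-0.997), from Grin2a (0.80) to Grm3 (-0.96) and from Gabra5 (1.799) to Gabrd (-1.63).

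Scaffolds and kinases of the postsynapse were called in both directions. Of 25 scaffold genes 8 (32%) were lower and 4 (16%) higher. Dlg2, the scaffold PSD-93, had 10.31, 10.24 and 10.54 in cortex and 9.13, 9.57 and 9.19 in hippocampus, 2.09-fold lower, and Dlg4, PSD-95, was 1.62-fold lower. The Homer family split, with Homer3 and Homer2 (1.34-fold) higher and Homer1 1.67-fold lower, from 11.49, 11.43 and 11.51 to 10.68, 10.85 and 10.69. The synapse-organizing adhesion proteins Lrrtm1 and Lrrtm3 split as well, Lrrtm1 2.13-fold higher with 9.53, 9.53 and 9.59 in cortex and 10.56, 10.68 and 10.68 in hippocampus, and Lrrtm3 1.96-fold lower. Of 27 genes of long-term potentiation and calcium signalling, 6 (22.2%) were higher and 9 (33.3%) lower, and the median difference was 0.05. Among the lower genes were calmodulin-dependent kinases: Camkk2, the upstream kinase, went from 11.32, 11.26 and 11.27 to 10.06, 10.23 and 10.12 (2.22-fold), Camk4 from 11.27, 11.23 and 11.34 to 10.15, 10.28 and 10.28 (2.06-fold), and Camk1 was 1.62-fold lower. Ryr3, a calcium release channel, was 1.76-fold higher and Prkca, protein kinase C alpha, 1.31-fold.

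Of 47 potassium channel genes, 18 (38.3%) were lower, 4 (8.51%) were higher and 25 were not called. Kcnh5, a voltage-gated channel of the ether-a-go-go family, had 6.58, 6.16 and 6.21 in cortex and 4.12, 4.45 and 3.93 in hippocampus, 4.44-fold lower (adjusted p = 1.6e-06), and its close relative Kcnh1 was 1.91-fold lower. Kcnv1, a silent modifier of Kv2 channels, Kcnt1, a sodium-activated channel, and Kcnj4, an inward rectifier, were 2.14-fold, 2.09-fold and 2.06-fold lower. The small-conductance calcium-activated channel Kcnn2 rose from 7.92, 7.65 and 7.89 to 8.66, 8.62 and 8.78, 1.82-fold, and Kcnd3, of A-type current, 1.54-fold. Among 26 sodium, calcium, HCN and TRP channel genes, 5 (19.2%) were higher and 6 (23.1%) lower. Sodium channel beta subunits were opposed, since Scn3b was 2.12-fold higher, with 10.23, 10.16 and 10.48 in cortex and 11.39, 11.41 and 11.32 in hippocampus, while Scn4b led the falls. Trpc4, a receptor-operated channel, had 6.94, 7.15 and 7.14 in cortex and 8.60, 8.67 and 8.72 in hippocampus (3.00-fold higher). The T-type calcium channel Cacna1h was 2.02-fold higher, and Scn1a, of fast-spiking interneurons, 1.55-fold lower.

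Receptors for amines, acetylcholine and peptides were called in 19 of 40 cases, 9 (22.5%) higher and 10 (25%) lower. Serotonin receptors were on both sides, with Htr4 and Htr5b (3.82-fold, from 4.44, 4.61 and 4.73 to 6.32, 6.70 and 6.56) higher and Htr1f 1.92-fold lower. Chrna7, the alpha-7 nicotinic subunit, was 1.63-fold higher, and Adra1b, an alpha-1 adrenergic receptor, 2.60-fold lower with 6.72, 6.59 and 6.44 in cortex and 5.24, 5.05 and 5.34 in hippocampus. Sstr2, a somatostatin receptor, was 1.85-fold lower. Of 46 neuropeptides and secreted signals, 9 (19.6%) were higher and 16 (34.8%) lower. Nts, neurotensin, went from 5.58, 5.58 and 5.54 to 7.75, 7.80 and 7.59 (4.42-fold higher) and Grp, gastrin-releasing peptide, from 8.03, 7.07 and 7.71 to 9.59, 9.69 and 9.70 (4.18-fold higher). Cerebellins, which bridge neurexins to postsynaptic receptors, were opposed, Cbln1 1.99-fold higher and Cbln2 3.55-fold lower with 8.56, 8.65 and 8.54 in cortex and 6.76, 6.87 and 6.63 in hippocampus. Pdyn, prodynorphin, was 2.42-fold lower. Neurotrophin genes had 3 of 10 (30%) higher and 3 (30%) lower. Bdnf, at 8.11, 8.45 and 8.25 in cortex and 9.15, 9.55 and 9.24 in hippocampus, was 2.06-fold higher, and Gfra2, the neurturin receptor, 2.57-fold lower.

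Of 57 axon guidance genes, 23 (40.4%) were higher and 9 (15.8%) lower, and 17 to 21 were higher without any single array. Among receptors, the neuropilins rose together. Nrp1 had 9.06, 9.08 and 9.10 in cortex and 10.58, 10.74 and 10.75 in hippocampus (3.06-fold, adjusted p = 5.8e-08), and Nrp2 7.16, 7.12 and 7.38 and 8.73, 8.76 and 8.74 (2.87-fold). Epha6, an ephrin receptor, rose from 5.98, 5.57 and 6.08 to 7.62, 7.70 and 7.58 (3.38-fold). Among ligands, Slit1, which repels axons, was 3.40-fold higher at 9.29, 9.50 and 9.42 against 7.71, 7.54 and 7.66, while Sema3a, the repellent that binds Nrp1, was 3.85-fold lower, with 8.51, 8.80 and 8.79 in cortex and 7.09, 6.90 and 6.27 in hippocampus. The ephrin Efna5 was 2.42-fold lower, and of plexins, the co-receptors of semaphorins, Plxnd1 2.19-fold lower.

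Cadherins and protocadherins had 6 of 28 (21.4%) higher and 9 (32.1%) lower. Of protocadherins, 3 were higher, Pcdh20 5.16-fold, from 7.42, 7.84 and 7.62 in cortex to 9.99, 9.96 and 10.03 in hippocampus (adjusted p = 1.6e-07), Pcdh8 2.82-fold and Pcdh19 2.54-fold. Others of the family were lower, such as Pcdh10 (1.91-fold) and Pcdh7 (1.89-fold). Cdh9, a cadherin that guides mossy fibre synapses, was 1.86-fold higher and Cdh6 2.59-fold lower, with 7.55, 7.46 and 7.62 and 6.11, 6.30 and 6.09. Transmitter release genes were called in 13 of 41 cases, 5 (12.2%) higher and 8 (19.5%) lower, and 3 were higher without hippocampus 3. Doc2a and Doc2b, calcium sensors of spontaneous release, were opposed: Doc2b rose from 8.21, 8.36 and 8.77 to 10.15, 10.42 and 9.92 (3.30-fold) and Doc2a went from 9.19, 8.99 and 9.14 to 7.98, 7.92 and 7.92 (2.25-fold lower). The SNARE protein Stx1a, syntaxin 1A, was 2.35-fold lower, at 12.12, 11.99 and 11.95 in cortex and 10.74, 10.75 and 10.86 in hippocampus, and the active zone protein Rims3 2.92-fold lower.

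Immediate early genes, which neurons switch on with activity, did not move together: 6 of 34 (17.6%) were higher and 6 (17.6%) lower. Nr4a3 went from 9.13, 8.75 and 8.74 in cortex to 10.37, 10.32 and 10.35 in hippocampus (2.77-fold higher), and Ptgs2, cyclooxygenase-2, was 2.65-fold higher. Egr1 was bright in both tissues and lower in hippocampus, at 12.28, 12.38 and 11.98 in cortex and 10.76, 10.66 and 10.56 in hippocampus, by -1.55 ± 0.17 (SE) (adjusted p = 6.2e-05). Ier5 was 1.55-fold lower. Of 22 genes of neurogenesis and proliferation, 2 (9.09%) were higher and 3 (13.6%) lower, against 6.59% and 7.34% of all genes. Beside Neurod1, Dpysl3, of growing axons, was 1.43-fold higher, whereas Dcx, doublecortin of migrating neurons, went from 7.70, 7.63 and 8.09 to 6.80, 6.52 and 6.90 (2.09-fold lower) and Stmn1, stathmin, was 1.57-fold lower.

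Cholesterol genes were lower in 5 of 18 cases (27.8%, against 7.34% of all genes) and higher in 0. All 18 lay below 0, as did 10018 of all 18193 genes, and the median was -0.20. The count of lower genes was 2 without cortex 2, cortex 3 or hippocampus 3, 3 without hippocampus 2, and 1 without both arrays numbered 2 or with choroid level as a covariate. Stard4, a sterol carrier, had 8.53, 8.47 and 8.57 in cortex and 7.95, 7.97 and 7.96 in hippocampus (1.48-fold lower), and Insig1, which restrains sterol synthesis, was 1.39-fold lower. In limma's test 0 of 44 respiratory chain genes were called, against 13.9% of all genes, and 0 had an unadjusted p below 0.05. Their differences ran from -0.11 to 0.16.

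The genes altered in these mice were measured by several probe sets. Aplp2, the gene deleted in all mice here, has 5, and 0 were called, with differences from -0.21 to 0.27. The brightest nevertheless gave 10.13, 10.13 and 9.91 in cortex and 9.89, 9.84 and 10.09 in hippocampus, above the upper quartile of every array. No array of a mouse with intact Aplp2 was analysed here, and whether these probe sets lie in the deleted part was not examined, so the signals do not check the labels. Aplp1, the third family member, has 2, and 0 were called, with 13.15, 13.18 and 13.16 in cortex and 13.17, 13.18 and 13.18 in hippocampus for the brighter. App has 4, of which the brightest was called, at 11.83, 11.73 and 11.83 in cortex and 11.54, 11.46 and 11.66 in hippocampus, a difference of -0.24 ± 0.07 (SE) (adjusted p = 0.042). This call was lost without cortex 1, cortex 3, hippocampus 1 or hippocampus 2, at adjusted p of 0.107 to 0.141, and the other 3 probe sets differed by -0.11 to 0.18 and were not called. The dim ones among them had tissue means of 2.53 to 2.86, near the floor of the array. The remaining probe set had means of 7.96 in cortex and 7.93 in hippocampus, against 12.63 and 12.53 in APLP2-KO. An RNA signal for an edited allele does not tell which protein is made. Timmdc1, a mitochondrial assembly factor, was not called, at -0.12. Among 26 APP family genes, secretases and adaptors, 5 (19.2%) were lower and 1 (3.85%) higher, against 7.34% and 6.59% of all genes. Without hippocampus 1, the lower count was 2. Dab1, the adaptor of reelin receptors that also binds APP, was 1.39-fold higher, with 9.29, 9.16 and 9.41 in cortex and 9.66, 9.85 and 9.76 in hippocampus, and Aph1a, a subunit of gamma-secretase, 1.51-fold lower, with 7.91, 8.29 and 8.27 and 7.58, 7.42 and 7.69. Of 12 genes around the kinase Cdk5, 2 (16.7%) were higher and 4 (33.3%) lower, and 1 was higher without any 1 of the 6 arrays. Without hippocampus 3, 2 were lower. The lowest was Ppp1r1b (-2.42), also in the striatal list, and the highest was Dab1. Cdk5 itself was not called, at -0.09. Its activator Cdk5r2, p39, went from 9.52, 9.67 and 9.83 in cortex to 8.40, 8.78 and 8.48 in hippocampus, 2.18-fold lower.

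The same comparison in APLP2-KO mice takes its differences from other arrays and asks whether the tissue difference belongs to this genotype. The spread was estimated over the arrays of both genotypes together, so each gene has the same SE in both (0.356 for Dsp). Calls in APLP2-KO are thus not independent of those in APPsα-DM, whereas signs and differences do not use this spread. Of the 1199 genes higher in APPsα-DM hippocampus, 1195 (99.7%) had the same sign in APLP2-KO and 921 (76.8%) were called there as higher, against 6.78% of all genes. Of the 1335 lower genes, 1313 (98.4%) had the same sign and 1147 (85.9%) were called as lower, against 9.7% of all genes, and 0 genes of either set were called in the opposite direction. Over all 18193 genes, 73.9% had the same sign. Among genes with at least a 2-fold difference, all 166 rises and all 187 falls kept their sign, and 160 and 185 were called. Their medians were 1.40 in APPsα-DM and 1.37 in APLP2-KO for rises, and -1.34 and -1.45 for falls. Across the 18193 genes the differences of the 2 genotypes correlated at r = 0.905, a description over genes, which are not independent replicates. For Dsp the APLP2-KO difference was 5.36, for Npy2r 4.06, for Scn4b -3.48 and for Drd2 -2.79.

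**Figure D5:**
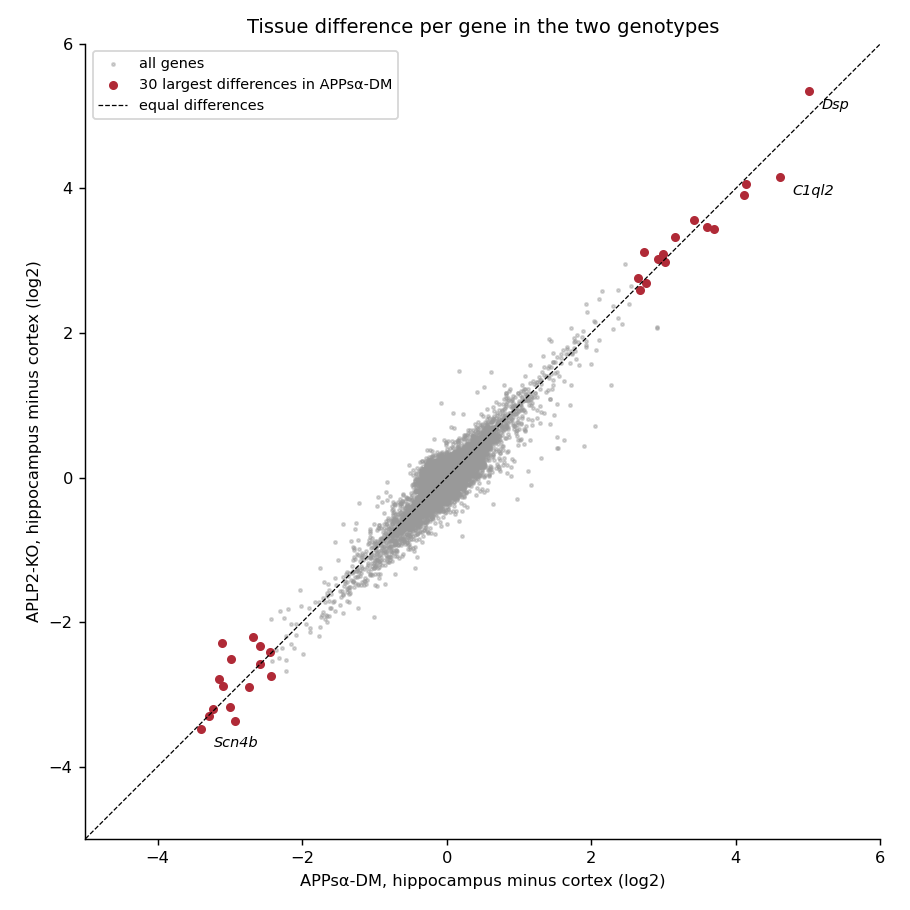
Difference in log2 signal between hippocampus and cortex per gene in APPsα-DM (horizontal axis) and APLP2-KO mice (vertical axis); grey points are all 18193 genes, red points the 30 genes with the largest differences in APPsα-DM, and the dashed line marks equal differences. The red points keep their sign in both genotypes, from Scn4b (-3.40 and -3.48) to Dsp (5.02 and 5.36).

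A direct test of the difference between the genotypes' tissue effects called 0 of 45037 probe sets in limma, with 1705 (3.79%) at an unadjusted p below 0.05 and a smallest adjusted p of 1.00. The median SE of this difference was 0.13. The genes with the smallest unadjusted p included Lpl, lipoprotein lipase, which was higher in hippocampus in both genotypes, by 0.80 in APPsα-DM and 1.29 in APLP2-KO. Plcd3, a phospholipase C, was lower in both, by -0.31 and -0.72, and the transporter Slc16a6 differed by -0.16 and -0.63. Efcab12, Figla and Omt2a had tissue differences of opposite sign in the genotypes, at 0.50 and -0.16, -0.23 and 0.38, and 0.11 and -0.34, all on dim probe sets. For the brightest App probe set the tissue difference was -0.24 in APPsα-DM and 0.0028 in APLP2-KO, and the difference between them did not pass the adjustment either. Its means in cortex and hippocampus were 11.80 and 11.55 in APPsα-DM and 13.462 and 13.465 in APLP2-KO.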

How the data were processed

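Values came from the series table of 12 Affymetrix arrays. Per the labels' protocols, brains were kept in a stabilizing solution before dissection, and 1 µg of column-purified RNA was turned into labelled cRNA. The authors deposited log2 values made with RMA and the affy package, per the submitters' processing notes, and the labels give no versions for them. RMA aligns the arrays' distributions by quantiles, so that a shift of all genes between tissues would not be seen. Array medians lay between 5.86 and 5.91. The number of arrays limits the precision.

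From these values, limma 3.58.1 in R 4.3.3 (lmFit, eBayes) fitted 4 group means over all 12 arrays (8 residual and 4.25 prior degrees of freedom), without a filter on dim signals. Contrasts gave hippocampus minus cortex in each genotype and the difference between these effects. Tests were two-sided, with Benjamini-Hochberg adjustment over 45037 probe sets, 64 control probe sets left out, and a threshold of 0.05. Exact permutation of 3 against 3 arrays cannot go below p = 0.1 and was not used.

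The platform annotation gave 34945 probe sets 1 symbol, 932 several and 9160 none. Only the first kind was named, with current symbols from RefSeq (GRCm38.p6) for 34741 of them, and a gene's value is that of its brightest probe set. Promoter sequences are those of the same RefSeq table.

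The members and the 38 gene lists were chosen with earlier results of these data known, so counts in lists are descriptions and no set test was run. Named genes were the 15 largest rises and 15 largest falls called without overlap of the groups, up to 6 called members of a list by size and up to 3 in the other direction, the 6 smallest p values of the difference between genotypes, App, Aplp1, Aplp2 and Timmdc1. Members of cell type lists could be given at any p. Alternatives were the 6 arrays alone, the replicate number as a block, other normalizations, a filter on dim probe sets, other variance settings, a stricter threshold, a 2-fold minimum, the mean of a gene's probe sets, the choroid plexus level as a covariate, and leaving out each array. Leaving out both arrays numbered 2 was chosen after seeing the data. All lists are shown with their counts in the plot of gene lists.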

Additional observations from a re-analysis of the deposited data

How the results depend on the processing

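For single genes the 2-fold minimum was not used as an alternative, and the filter on dim probe sets left 171 of the 174 genes named as called. Every such gene kept its direction under each alternative that tested it, and 164 kept their call under all of these. The 10 others were App, Nr3c1, Aldh1l1, Camk2a, Dlg4, Homer2, Insig1, Lum, Ntrk2 and Prkca: averaging a gene's probe sets ended 6 calls (App, Nr3c1, Aldh1l1, Camk2a, Dlg4 and Ntrk2), and leaving out both arrays numbered 2 ended 4 (App, Homer2, Insig1 and Prkca). Some genes kept their call but differed less under at least 1 alternative: Nr4a3 by 0.46 in place of 1.47, Il16 by 0.85 in place of 2.05 and Gpr161 by 1.39 in place of 2.55. Likewise Gabrd differed by -0.82 in place of -1.63, Aph1a by -0.21 in place of -0.59 and Rgs9 by -0.99 in place of -2.31. Genes among the largest rises did so too: Pkp2 by 1.63 in place of 2.99, Htr4 by 1.61 in place of 3.02, Tdo2 by 1.41 in place of 2.73 and Cpne7 by 1.53 in place of 2.65. Among the largest falls, Rasgrp2 differed by -0.996 in place of -2.44, Myl4 by -1.54 in place of -2.94 and Trbv1 by -1.82 in place of -3.23. Leaving out any single array took none of these genes that far. At an adjusted p below 0.01, 1272 probe sets were higher and 1416 lower (697 and 835 genes), and with at least a 2-fold difference 334 and 333 (166 and 187 genes), fewer because these rules are stricter. Leaving out single arrays gave 1599 to 2107 probe sets higher and 1741 to 2226 lower (877 to 1035 and 958 to 1251 genes). Of the 4789 calls, 3169 to 4646 were repeated in the same direction across the refits at the same threshold, and 0 turned. The test between genotypes called 0 probe sets under each alternative tried, with a smallest adjusted p of 0.718 without cortex 2. Of 836 list counts under alternatives, 56 moved by more than 1.5 times. The labels do not say that replicate numbers pair the samples. Deviations of same-numbered arrays from their group means correlated at 0.0785, 0.0193 and 0.0372 in APPsα-DM, under the 0.1 asked of every pair, and at 0.109, 0.131 and 0.155 in APLP2-KO. All 3 APPsα-DM cortex arrays correlated best with their own number, a hint from the data and not from the design. With the replicate block, 2180 probe sets were higher and 2297 lower in APPsα-DM (1067 and 1243 genes), and 2409 and 3037 in APLP2-KO, against 2529 and 3143 without it. Signals near the lower quartile, and 3 arrays per group, limit small differences.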

Other observations

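In 11 genes, probe sets of the same gene were called in opposite directions between hippocampus and cortex of APPsα-DM mice: Camk2a, Coa8, Dtna, Enc1, Ensa, Gprc5b, Gsdme, Ntrk2, Pex5l, Rtn4 and Syne1. They were chosen after their values were seen. For Ntrk2, the receptor of BDNF that is made with and without its kinase domain, 3 probe sets were lower in hippocampus, by -0.61, -0.49 and -0.26, and 1 was higher, by 0.29 ± 0.06 (SE), with an adjusted p of 0.0081 in limma's test. The call of its brightest probe set, at -0.26, was lost without cortex 1, hippocampus 1, cortex 3 or hippocampus 3 (adjusted p 0.14, 0.121, 0.0947 and 0.118 in limma's test). The APLP2-KO arrays gave the same signs, -0.61, -0.48, -0.31 and 0.23. For Syne1, a giant nuclear envelope protein with many isoforms, the brighter probe set was higher by 0.77 and another lower by 0.38 on the log2 scale (-0.38). For Camk2a, the alpha subunit of the kinase of potentiation, the 2 bright probe sets were lower (-0.73 and -0.83), and a dimmer one, at a mean of 7.16 in cortex and 7.90 in hippocampus, was higher by 0.74. Gprc5b, an orphan receptor, had probe sets at 0.42 and -1.10, and Rtn4, the source of the Nogo proteins, at -0.84, -0.24 and 0.36. Which transcript each probe set detects was not examined here.

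Among probe sets without a symbol in the annotation used here, 78 were called with at least a 2-fold difference, 46 higher and 32 lower in hippocampus.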
